A study of Mus musculus with 12 samples.

Results

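The imprinted Dlk1-Meg3 domain lies on mouse chromosome 12 and is described here through 6 genes, taken as the rows of the count table with the gene names Dlk1, Rtl1, Dio3, Meg3, Rian and Mirg, out of 55335 genes in the table. Each name matched 1 row, and all 6 rows had enough counts to be tested, those of Rtl1 and Dio3 through their counts at days 4 and 6. The data are polyadenylated RNA from mouse embryonic stem (ES) cells, cells derived from the early embryo that are kept dividing in culture, sampled at days 0, 2, 4 and 6 with 3 libraries per day. The labels give 1 cell line, mESC, for all 12 libraries, with no allele, strain or treatment that differs between them. They give 1 growth protocol for every day, with serum replacement, leukaemia inhibitory factor and irradiated mouse embryonic fibroblasts as a feeder layer, and do not state what was changed after day 0. Nothing in them states that the 3 libraries of a day came from different cultures, and p-values here reflect library-to-library spread that could be technical.

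In an imprinted domain, each gene is transcribed mainly from the chromosome of 1 parent. In this domain the paternal chromosome expresses the protein-coding genes Dlk1, Rtl1 and Dio3, and the maternal chromosome expresses the long non-coding RNAs Meg3, Rian and Mirg, which carry snoRNAs and a large group of miRNAs along the same strand. A methylated region between Dlk1 and Meg3 sets which parental copy is used, and Meg3 is known for being silenced in some cultured pluripotent lines. The counts do not separate the parental copies, so every level below is the sum of both.

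In the GENCODE M21 annotation of the GRCm38 build, Dlk1 occupies chr12:109452823-109463336 on the plus strand. Meg3 follows at chr12:109541001-109571726, Rian at chr12:109603940-109661716 and Mirg at chr12:109729764-109749460, all on the plus strand. Rtl1 lies at chr12:109589193-109600330 on the minus strand, between Meg3 and Rian, and Dio3 is a single exon at chr12:110279068-110281097 on the plus strand. From the start of Dlk1 to the end of Dio3 the interval spans 828.3 kb. RefSeq (GRCm38.p6) gives a start for 5 of the 6 genes. The 250 bases before the start are shown for 3 of them, whose windows differ in CpG content and in core motifs. Any bearing of these features on the levels of the genes was not tested.
Dlk1, chr12:109452573-109452822, plus strand: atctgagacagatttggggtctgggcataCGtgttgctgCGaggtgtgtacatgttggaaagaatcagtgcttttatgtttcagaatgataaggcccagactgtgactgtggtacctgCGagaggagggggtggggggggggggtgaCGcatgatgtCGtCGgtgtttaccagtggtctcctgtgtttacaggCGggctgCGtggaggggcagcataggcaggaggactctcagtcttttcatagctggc
Meg3, chr12:109540746-109540995, plus strand: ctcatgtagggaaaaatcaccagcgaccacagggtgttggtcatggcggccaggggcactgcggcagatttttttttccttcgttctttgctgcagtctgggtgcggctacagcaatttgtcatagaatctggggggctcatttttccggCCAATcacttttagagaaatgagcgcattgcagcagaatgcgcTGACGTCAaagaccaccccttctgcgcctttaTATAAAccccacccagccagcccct
Rian, chr12:109603695-109603944, plus strand: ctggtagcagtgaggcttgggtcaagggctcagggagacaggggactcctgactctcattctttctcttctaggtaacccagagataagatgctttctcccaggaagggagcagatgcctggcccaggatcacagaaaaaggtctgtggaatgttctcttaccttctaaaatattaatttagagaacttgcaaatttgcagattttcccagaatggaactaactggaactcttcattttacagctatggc
In the Dlk1 and Rian windows the capitals mark every CG dinucleotide, and in the Meg3 window they mark 3 motifs, a CCAAT box, a cAMP response element (TGACGTCA) and a TATA box (TATAAA). The Dlk1 window holds 8 CG, the Meg3 window 10 and the Rian window none, against a median of 6 over 32851 windows of the same length, of which 7.87% hold none. The TGACGTCA of Meg3 lies 57 to 50 bases before the RefSeq start and its TATAAA 25 to 20 bases before it, and this TATAAA overlaps a TTTATA, the same motif on the other strand, 29 to 24 bases before the start. Read on both strands, 1.55% of all windows hold TGACGTCA, 33.8% hold CCAAT and 12.4% hold TATAAA. None of these 3 motifs is in the Dlk1 or Rian window. The window of Dio3 holds 21 CG, 2 CCAAT boxes (1 on each strand) and a TATAAA, and the window of Mirg, whose RefSeq start lies 5217 bases inside the GENCODE gene, holds 10 CG and 1 CCAAT. RefSeq places a further Meg3 start 4397 bases inside the gene, with no CG in its window.

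RefSeq lists 113 mature miRNAs from 58 hairpins between the start of Dlk1 and the end of Dio3. They carry 104 distinct seeds (bases 2 to 8, which pair with targets), of which 9 are shared by 2 or more mature miRNAs. For 11 of the mature miRNAs, from 6 hairpins, the exact reverse complement was found in the Rtl1 transcript, because these hairpins lie opposite an exon of Rtl1. One mature miRNA of each of these 6 hairpins is shown, with the seed in capitals.
miR-431-5p, chr12:109590459-109590479, plus strand: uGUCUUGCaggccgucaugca
miR-433-3p, chr12:109591781-109591802, plus strand: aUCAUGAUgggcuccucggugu
miR-127-3p, chr12:109592888-109592909, plus strand: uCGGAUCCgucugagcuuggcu
miR-434-3p, chr12:109594565-109594586, plus strand: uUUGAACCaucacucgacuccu
miR-432, chr12:109595006-109595028, plus strand: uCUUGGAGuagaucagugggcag
miR-136-5p, chr12:109595331-109595352, plus strand: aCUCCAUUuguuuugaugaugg
The mature sequences that follow come from hairpins downstream of Rian. They show 2 of the shared seeds, AUGUAAC in miR-379-3p and miR-411-3p and GGUAGAC in miR-379-5p and miR-1193-5p, and 2 miRNAs whose hairpin rows in exons of Mirg had enough counts to be tested.
miR-379-3p, chr12:109709102-109709123, plus strand: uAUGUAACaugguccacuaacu
miR-411-3p, chr12:109710225-109710246, plus strand: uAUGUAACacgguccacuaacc
miR-379-5p, chr12:109709065-109709085, plus strand: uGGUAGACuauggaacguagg
miR-1193-5p, chr12:109715716-109715735, plus strand: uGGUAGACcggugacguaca
miR-485-3p, chr12:109734946-109734967, plus strand: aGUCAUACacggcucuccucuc
miR-410-3p, chr12:109743764-109743784, plus strand: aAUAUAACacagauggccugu

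Total counts per library ran from 6.95 to 13.3 times 1e6, and the 6 members together took 0.0247% of all counts at day 0, 0.0606% at day 2, 0.140% at day 4 and 0.259% at day 6. Gene levels are given in CPM (counts per 1e6 counts) after scaling of the libraries by the trimmed mean of M-values (TMM), as mean ± SD over the 3 libraries of a day. Fold changes are fitted log2 values ± SE from edgeR's quasi-likelihood test, and a gene counts as changed where the Benjamini-Hochberg adjusted p over 16468 tested genes is under 0.05. The 8 ES cell markers include the pluripotency factors Pou5f1, Sox2 and Nanog. They summed to 824 to 854 CPM in day 6 libraries against 5480 to 5539 CPM in day 0 libraries. All 8 fell, beside 37.5% of all tested genes. All 8 had counts in every day's libraries. Much of the transcriptome moved over the same days, so the members' calls are given beside the share of all tested genes that changed. Days 2, 4 and 6 were each set against the same 3 day 0 libraries, so these 3 comparisons are not independent of each other. In bulk RNA, a change in the share of cells that express a gene and a change in the RNA per cell cannot be told apart.

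All 6 members rose by day 6, and none fell in any comparison. Rtl1 and Dio3, with 4 and 9 counts over the day 0 libraries, would not have been tested had they stayed low. The counts and medians below that include them are thus partly set by the filter. At day 6 against day 0, 6 of 6 members rose, where 39.4% of tested genes rose and 37.5% fell. At day 4 against day 0, 6 of 6 rose, where 37.5% of tested genes rose and 36.1% fell. At day 2 against day 0, 4 of 6 rose, all but Rtl1 and Dio3, where 34.9% of tested genes rose and 33.2% fell. The day 2 split over all genes moved with scaling, to 7053 higher and 4412 lower genes with library size alone, against 5743 and 5473 with TMM, and the members' calls were the same under both. Between successive days, 6 of 6 rose at day 4 against day 2 (background 25.3% higher and 24.8% lower) and 5 of 6 at day 6 against day 4 (23.6% higher and 19.3% lower), the exception being Dio3. Wherever a member changed, its 3 libraries at the later day were all above the 3 at the earlier day. The share of all tested genes that separate in this way was not computed. Whether the separation is particular to the members is therefore not known, here and for the single members below. The median log2 fold change of the 6 members was 1.04 at day 2, 3.05 at day 4 and 3.52 at day 6 against day 0, beside medians of 0.02, 0.01 and 0.02 over all tested genes. The edgeR quasi-likelihood F-test over the 4 days called all 6 members, as it did 89.2% of tested genes. By its p-value Meg3 ranked 16 and Dlk1 18 among 16468 genes, Rian 62, Mirg 396, Rtl1 2428 and Dio3 7514.

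**Figure D1:**
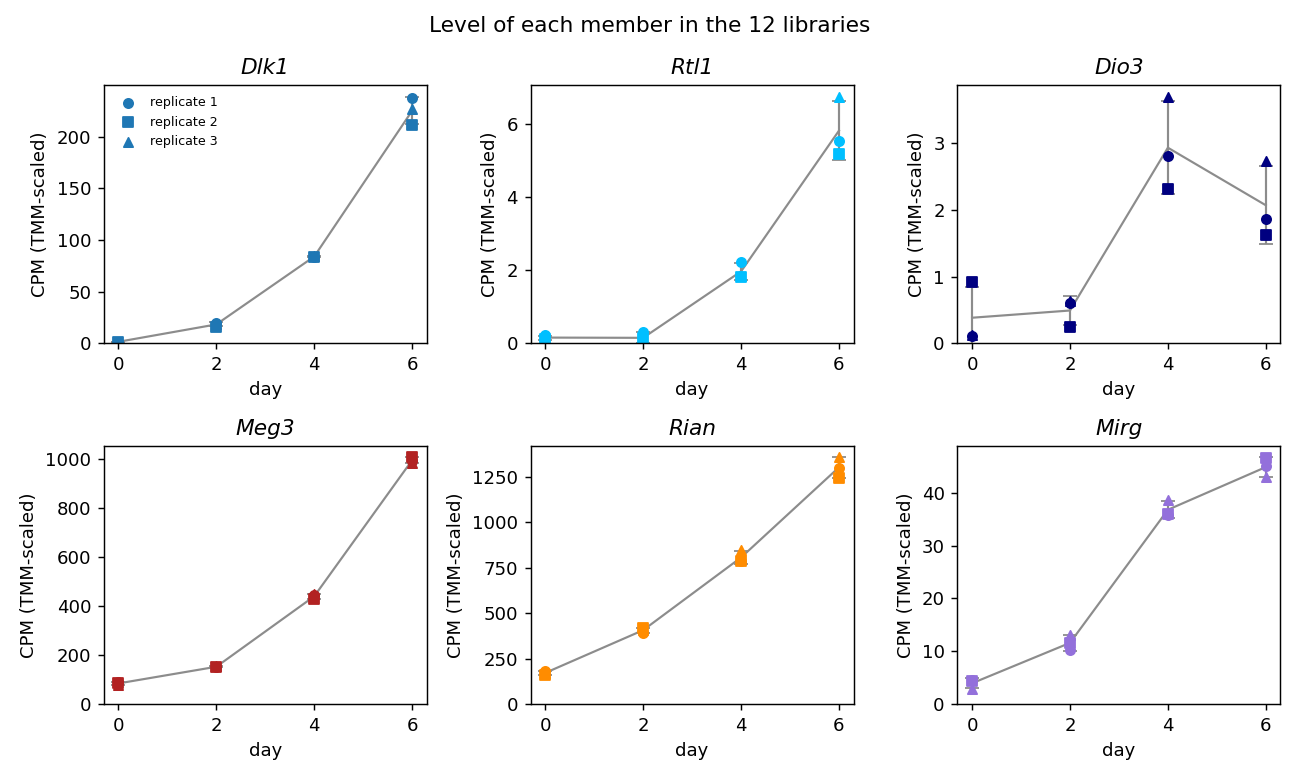
Level of each member in every library, in TMM-scaled CPM on the vertical axis, which starts at 0 and differs between panels, by day on the horizontal axis. Symbols are the 3 replicates, and the grey line and bars are the mean ± SD of a day. Dlk1, Meg3, Rian and Mirg were higher at each later day, Rtl1 left its day 0 level at day 4, and Dio3 had its highest mean at day 4.

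Dlk1 encodes a transmembrane protein with EGF-like repeats that resembles Notch ligands but lacks their receptor-activating domain, and it is known as preadipocyte factor. It had the largest change of the 6. Its level was 1.81, 1.71 and 1.39 CPM in the day 0 libraries, 20.2, 16.4 and 18.7 CPM at day 2, 84.0, 84.0 and 84.2 CPM at day 4, and 237, 211 and 227 CPM at day 6. No 2 days overlapped, and the 3 libraries of day 4 were nearly equal. Day 6 averaged 225 ± 13.3 CPM and day 0 averaged 1.64 ± 0.217 CPM (SD, n = 3 each), a 136-fold rise with a log2 fold change of 7.09 ± 0.10 (edgeR quasi-likelihood test, adjusted p = 1.56e-38). The day 0 mean rests on 40 counts in all, which gives an exact 95% Poisson interval of 1.17 to 2.24 CPM for counting error alone. By log2 fold change Dlk1 ranked 88 from the top of 16468 genes at day 6, 139 at day 4 and 265 at day 2, each against day 0. Its successive steps shrank on the log2 scale, at 3.48 ± 0.16 for day 2 against day 0, 2.18 ± 0.07 for day 4 against day 2 and 1.42 ± 0.05 for day 6 against day 4, all with the edgeR test called. In CPM the steps grew, since Dlk1 stood at 0.727% of its day 6 mean at day 0, 8.21% at day 2 and 37.4% at day 4.

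Rtl1, a retrotransposon-derived gene needed for fetal capillaries in the mouse placenta, was near the limit of detection at the start. It had 2, 1 and 1 counts in the day 0 libraries, 4, 2 and 0 at day 2, 23, 19 and 13 at day 4, and 74, 48 and 64 at day 6. The libraries of days 0 and 2 overlapped, while those of days 4 and 6 stood above both and apart from each other. Day 6 averaged 5.82 ± 0.808 CPM and day 0 averaged 0.161 ± 0.0561 CPM (SD, n = 3 each), with a log2 fold change of 5.04 ± 0.40 (edgeR quasi-likelihood test, adjusted p = 1.88e-14). The 4 counts of day 0 leave an exact 95% Poisson interval of 0.0447 to 0.420 CPM, so the 32.9-fold ratio is loosely bounded from below as well as from above. At day 2 against day 0 the log2 fold change was 0.00 ± 0.87 with a 95% interval of -1.71 to 1.71, and the edgeR test made no call (adjusted p = 0.998). Day 4 against day 2 gave a log2 fold change of 3.50 ± 0.46, which became 4.34 without replicate 1 of day 2, the library that held 4 of the 6 counts of that day. Day 6 against day 4 gave a further 1.54 ± 0.22.

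Dio3 encodes the type 3 iodothyronine deiodinase, a selenoenzyme that inactivates thyroid hormone. Its counts were 1, 7 and 1 in the day 0 libraries, 8, 3 and 7 at day 2, 29, 24 and 26 at day 4, and 25, 15 and 26 at day 6. The 2 earlier days overlapped, the 2 later days overlapped, and the later pair lay above the earlier pair. Day 6 averaged 2.07 ± 0.584 CPM and day 0 averaged 0.386 ± 0.461 CPM (SD, n = 3 each), with a log2 fold change of 2.44 ± 0.48 (edgeR quasi-likelihood test, adjusted p = 1.93e-05). Replicate 2 of day 0 held 7 of the 9 counts of that day, and without it the log2 fold change was 3.97 at day 6. For day 4 against day 0 it was 2.91 ± 0.45 with all libraries and 4.44 without that replicate. At day 2 against day 0 it was 0.40 ± 0.63 and was not called (edgeR, adjusted p = 0.591), and without that replicate it was 1.94 ± 0.88, also not called (adjusted p = 0.0526). Dio3 was the one member whose mean at day 6 was below that at day 4, 2.07 ± 0.584 CPM against 2.93 ± 0.701 CPM, a log2 fold change of -0.47 ± 0.29 that did not pass the test (edgeR, adjusted p = 0.191, 95% interval -1.03 to 0.09). Dio3os, the antisense RNA that starts near Dio3 on the minus strand, had no count in the 3 day 0 libraries, 4 counts in all at day 2, 21 at day 4 and 26 at day 6. Against a floor of 3 counts over the day 0 libraries, its pooled CPM was at least 6.57-fold higher at day 6 and at least 6.14-fold higher at day 4, with no test because the gene was below the count filter.

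Meg3, the first of the maternally expressed non-coding RNAs after the control region, was present at every day. Its level was 90.2, 85.7 and 79.2 CPM in the day 0 libraries, 151, 152 and 156 CPM at day 2, 444, 428 and 450 CPM at day 4, and 995, 1009 and 985 CPM at day 6. The 4 days did not overlap, and the spread within a day was small beside the steps between days. Day 6 averaged 996 ± 12.4 CPM and day 0 averaged 85.0 ± 5.51 CPM (SD, n = 3 each), an 11.7-fold rise with a log2 fold change of 3.55 ± 0.05 (edgeR quasi-likelihood test, adjusted p = 7.88e-39). Its largest log2 step was the middle one, 1.52 ± 0.05 at day 4 against day 2, beside 0.85 ± 0.05 at day 2 against day 0 and 1.18 ± 0.04 at day 6 against day 4.

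Rian, which hosts C/D box snoRNAs, had the highest level per length of the 6 at every day. It stood at 184, 161 and 171 CPM in the day 0 libraries, 392, 419 and 409 CPM at day 2, 784, 788 and 845 CPM at day 4, and 1299, 1244 and 1359.6 CPM at day 6. Again no 2 days overlapped. Day 6 averaged 1301 ± 57.8 CPM and day 0 averaged 172 ± 11.5 CPM (SD, n = 3 each), a 7.55-fold rise with a log2 fold change of 2.92 ± 0.05 (edgeR quasi-likelihood test, adjusted p = 1.64e-35). Its log2 steps became smaller with time, at 1.24 ± 0.05, 0.99 ± 0.05 and 0.69 ± 0.05, so that Rian had reached 61.9% of its day 6 mean by day 4 where Meg3 had reached 44.2%. The count table carries a later version of the Rian gene model than M21 does, so its length and position are those of the neighbouring version.

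Mirg, a host of miRNA hairpins downstream of Rian, rose by less after day 4 than before it. It stood at 4.52, 4.46 and 2.91 CPM in the day 0 libraries, 10.2, 11.5 and 13.1 CPM at day 2, 35.7, 36.0 and 38.6 CPM at day 4, and 45.0, 46.6 and 42.9 CPM at day 6. The days did not overlap, although days 4 and 6 came close. Day 6 averaged 44.8 ± 1.84 CPM and day 0 averaged 3.96 ± 0.913 CPM (SD, n = 3 each), an 11.2-fold rise with a log2 fold change of 3.49 ± 0.12 (edgeR quasi-likelihood test, adjusted p = 5.79e-26). Its log2 steps were 1.53 ± 0.15, 1.67 ± 0.09 and then 0.29 ± 0.07 (adjusted p = 0.00165 by the edgeR test for the last), and it stood at 82.1% of its day 6 mean at day 4.

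**Figure D2:**
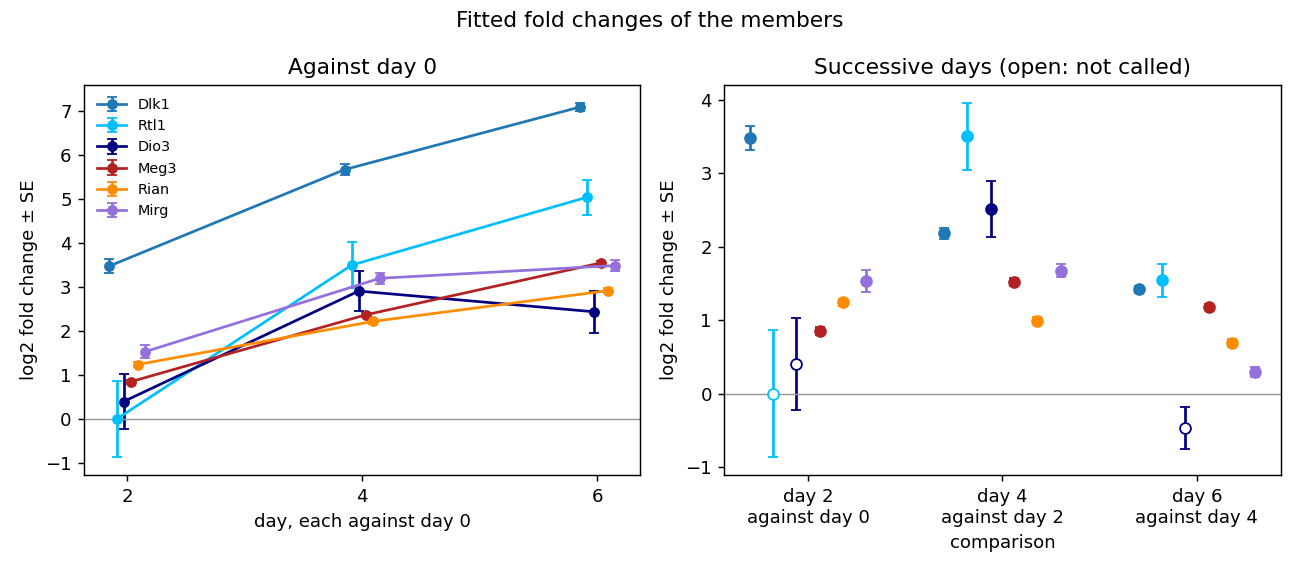
Fitted log2 fold changes ± SE of the 6 members on the vertical axis, against day 0 on the left and between successive days on the right, with open symbols for comparisons that did not pass the edgeR quasi-likelihood test. Dlk1 is highest at each day against day 0, Rtl1 and Dio3 make their largest step between days 2 and 4, and Dio3 is below 0 in the last step without passing the test.

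Levels of different genes were compared as CPM per kb of annotated exon. At day 6 the order was Rian with 71.4 ± 3.17, Meg3 with 55.1 ± 0.686, Dlk1 with 39.7 ± 2.35, Mirg with 6.14 ± 0.253, Dio3 with 1.02 ± 0.287 and Rtl1 with 0.915 ± 0.127 CPM per kb (SD, n = 3). Only the last 2 neighbours overlapped, Dio3 being above Rtl1 in 2 of 3 libraries. At day 0 the order was Rian with 9.44 ± 0.633, Meg3 with 4.70 ± 0.305, Mirg with 0.544 ± 0.125, Dlk1 with 0.289 ± 0.0383, Dio3 with 0.190 ± 0.227 and Rtl1 with 0.0254 ± 0.00883 CPM per kb, where Dlk1 and Dio3 overlapped. Mirg was above Dlk1 at day 0 and Dlk1 above Mirg at days 2, 4 and 6, without overlap between their libraries at any day. With the length of the longest transcript in place of all exons, day 6 gave 161 CPM per kb for Rian, 68.5 for Meg3, 48.3 for Dlk1 and 11.7 for Mirg, in the same order.

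Ratios of counts within a library do not depend on the scaling of libraries, and 3 ratios to Meg3 were followed over the 3 later days, 9 comparisons with day 0 in all. For each, an exact two-sided permutation test of 3 libraries against 3 cannot go below p = 0.1, so none could pass a threshold of 0.05. Rian had 2.04, 1.88 and 2.16 counts per Meg3 count in the day 0 libraries, 2.60, 2.75 and 2.62 at day 2, 1.77, 1.84 and 1.88 at day 4, and 1.31, 1.23 and 1.38 at day 6. The ratio was thus highest at day 2 and lowest at day 6, and only days 0 and 4 overlapped. Its log2 value at day 6 was 0.38 ± 0.08, against 1.02 ± 0.10 at day 0 (SD, n = 3 each), a difference of -0.63 (exact permutation p = 0.1, the smallest possible, adjusted over the 9 comparisons 0.129). At day 2 the difference from day 0 was 0.39, also at the smallest possible p of the exact permutation test, 0.1.

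Mirg and Dlk1 moved otherwise relative to Meg3. Mirg had 0.0501, 0.0521 and 0.0367 counts per Meg3 count at day 0, 0.0673, 0.0754 and 0.0840 at day 2, 0.0805, 0.0842 and 0.0858 at day 4, and 0.0452, 0.0461 and 0.0436 at day 6. The middle days lay above both ends, and the ends overlapped. The log2 difference from day 0 was 0.70 at day 2 and 0.85 at day 4 (exact permutation p = 0.1 for each) and -0.05 at day 6 (exact permutation p = 0.9). Dlk1 had 0.0201, 0.0199 and 0.0176 counts per Meg3 count at day 0 and 0.238, 0.209 and 0.230 at day 6. Every later library lay above every day 0 library, with log2 differences from day 0 of 2.60 at day 2, 3.27 at day 4 and 3.50 at day 6 (exact permutation p = 0.1 for each).

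**Figure D3:**
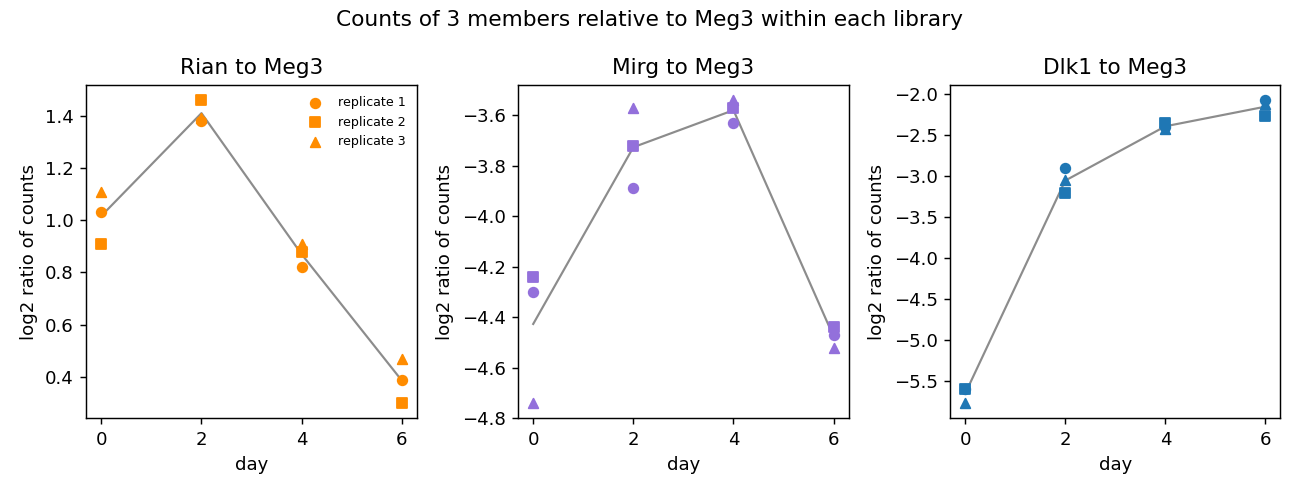
log2 ratio of the counts of Rian, Mirg and Dlk1 to those of Meg3 in each library, on the vertical axes, by day. Symbols are the 3 replicates and lines join the means of the days. Rian to Meg3 peaks at day 2 and is lowest at day 6, Mirg to Meg3 is higher at days 2 and 4 than at either end, and Dlk1 to Meg3 is higher at each later day.

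The interval holds 110 further annotated rows, of which 67 are miRNA hairpins and 23 snoRNAs. No count was seen for 21 of the 110, and 31 had 20 or more counts over the 12 libraries. Selection of polyadenylated RNA is not designed to capture mature miRNAs or mature snoRNAs, so these counts are not levels of the mature RNAs. Rows inside a host exon overlap their host on the same strand, and whether a read was counted for both is not stated. The 6 miRNA rows within exons of Meg3 or Mirg summed to 43.5 ± 2.70 CPM in day 6 libraries and 4.11 ± 0.592 CPM in day 0 libraries (SD, n = 3 each). Most of this sum came from Mir1906-1 in a Meg3 exon, with 35.2 ± 2.29 CPM at day 6 and 3.28 ± 0.319 CPM at day 0. The 13 snoRNA rows within Rian summed to 50.6 ± 2.08 CPM at day 6 and 7.27 ± 1.31 CPM at day 0, and most of that came from Gm24895, with 42.4 ± 2.37 CPM at day 6 and 6.17 ± 1.07 CPM at day 0.

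The 6 hairpin rows opposite Rtl1, whose sequences are given above, summed to 7 counts at day 0, 18 at day 2, 44 at day 4 and 76 at day 6. Their mean was 2.43 ± 0.814 CPM at day 6 and 0.297 ± 0.406 CPM at day 0 (SD, n = 3 each), with no overlap between the libraries of these days. Across the whole table, 17 genes nested opposite well-counted host exons had a median of 0.282% of the host's counts per base, at most 1.9%. The 106 nested on the same strand had a median of 9.77%. The deposited counts thus largely kept the strands apart, and Rtl1 was read separately from the transcript opposite it. Rtl1 itself was not part of this check, which does not cover its few counts at days 0 and 2. The 39 hairpin rows that lie in no member gene summed to 112 counts at day 6 and 9 at day 0. Rows of Mir431 and Mir341 had no count at day 0 and 13 and 17 counts at day 6.

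Of the 31 further rows with 20 or more counts, 12 passed the count filter. Of these, 11 rose at day 6 against day 0, where 39.4% of all tested genes rose. Those 11 were the hairpin rows Mir1906-1, Mir668, Mir485 and Mir410 and the snoRNA rows Gm23474, Gm23600 and Gm24895. The others were the small RNA rows Gm27300 and Gm27350, and the transcripts Gm37899 and B830012L14Rik. Most of them lie inside Meg3, Rian or Mirg. Some had few counts at day 0 and passed the filter through later days, such as Mir668 with 2 counts at day 0 and 29 at day 6. Such a row would not have been tested had it stayed low, so the count of 11 is partly set by the filter. Mir410 had a log2 fold change of 3.64 ± 0.34 and Mir485 one of 2.86 ± 0.40, both within exons of Mirg, whose own value was 3.49 ± 0.12. Mir1906-1, inside a Meg3 exon, had 3.41 ± 0.12. Gm37899 and B830012L14Rik lie between Rian and Mirg. B830012L14Rik had a log2 fold change of 3.27 ± 0.61, and Gm37899 had 50 counts over the day 6 libraries and 1 over the day 0 libraries. The remaining row, the processed pseudogene Gm3379 between Mirg and Dio3, had 0.29 ± 0.36 and was not called (edgeR quasi-likelihood test, adjusted p = 0.466).

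At day 6 against day 0, the nearest protein-coding genes outside the interval rose by less than the members, fell or did not pass the test. On the Dlk1 side, Begain, which encodes a partner of a synaptic scaffold protein, rose to 36.6 ± 0.997 CPM at day 6, against 14.0 ± 1.63 CPM at day 0 (log2 fold change 1.39 ± 0.09). Slc25a47, with 1.02 ± 0.37, and Wars, with 0.27 ± 0.05, also rose, and Wdr25, with -0.02 ± 0.17, was not called. At day 2 against day 0, Slc25a47 had 1.54 ± 0.33, above the values of Meg3 (0.85 ± 0.05) and Rian (1.24 ± 0.05) and close to that of Mirg (1.53 ± 0.15). On the Dio3 side, at day 6 against day 0, Ppp2r5c fell by 0.71, Dync1h1 by 0.52 and the chaperone gene Hsp90aa1 by 1.91 on the log2 scale, and 1700001K19Rik had too few counts to be tested. The lowest log2 fold change at day 6 among the 6 members, 2.44 for Dio3, was above the highest among these 7 flanking genes, 1.39 for Begain. The difference between members and flanking genes was not tested.

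**Figure D4:**
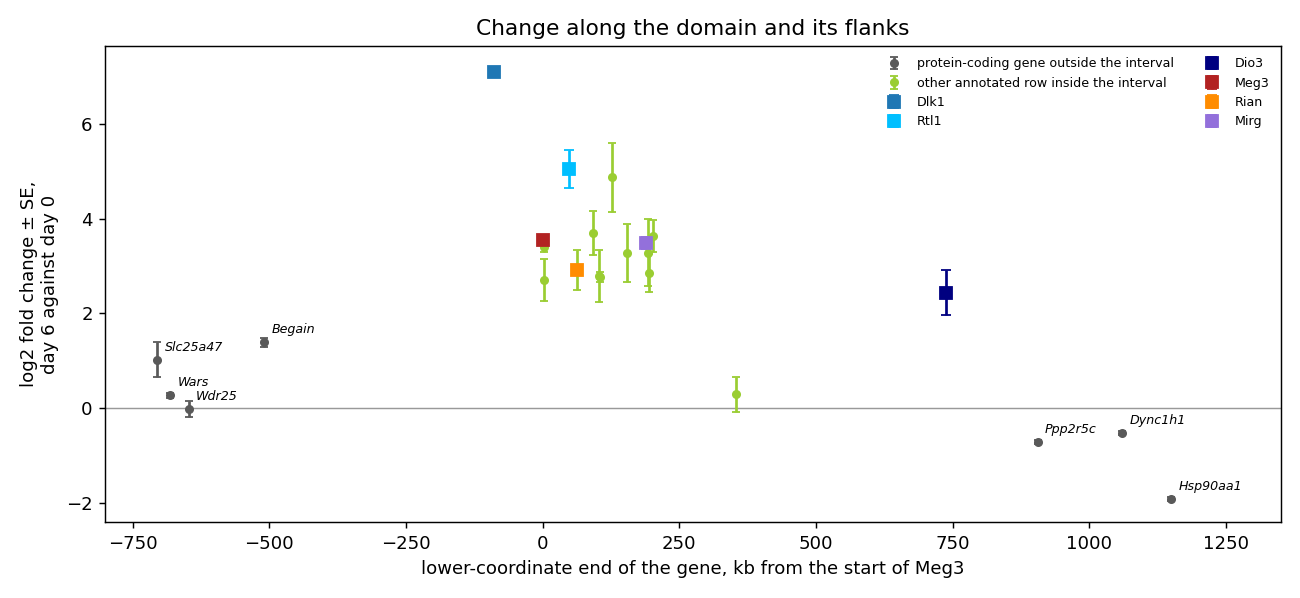
log2 fold change ± SE at day 6 against day 0 on the vertical axis, by distance in kb from the start of Meg3 on the horizontal axis. Squares are the 6 members, green points the other tested rows inside the interval and grey points the nearest tested protein-coding genes outside it, which lie between -1.91 and 1.39 while the members lie between 2.44 and 7.09.

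Genes that act on imprints were mostly lower at day 6 than at day 0. Of 20 imprint control genes, all tested, 14 fell and 3 rose at day 6 against day 0, with a median log2 fold change of -0.58. Over all tested genes, 37.5% fell and 39.4% rose in that comparison, with a median of 0.02. Zfp57, the zinc finger protein that keeps methylation on imprints, averaged 66.7 ± 1.88 CPM at day 6 and 361 ± 6.56 CPM at day 0, a log2 fold change of -2.44 ± 0.05. Its partner Trim28 had -0.56 ± 0.05, the maintenance methyltransferase Dnmt1 -0.78 ± 0.05 and Dnmt3a -0.15 ± 0.04. The demethylating enzyme Tet1 had -3.42 ± 0.06, and the Polycomb-associated genes Jarid2, Suz12 and Ezh2 had -1.49 ± 0.04, -1.02 ± 0.05 and -0.33 ± 0.05, all of them called lower. Aff3, which encodes an elongation factor subunit known to bind the control region of this domain in mouse ES cells, rose to 23.2 ± 1.03 CPM at day 6, against 4.94 ± 1.11 CPM at day 0 (log2 fold change 2.22 ± 0.13). Dppa3, which protects Meg3 from methylation during mouse reprogramming, was at 14.7 ± 0.573 CPM at day 6 and 16.2 ± 0.361 CPM at day 0 and was not called (edgeR quasi-likelihood test, adjusted p = 0.228), with a lower mean of 3.36 CPM at day 2.

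Other imprinted genes did not all move as the 6 members did. Of 23 tested genes listed as paternally expressed, 13 rose and 3 fell at day 6 against day 0, with a median of 0.39. That list includes Zim1 (1.83 ± 0.23), which is maternally expressed in mouse. Of 14 tested genes listed as maternally expressed, 9 rose and 3 fell, with a median of 0.40. Its Gnas row stands for the Nesp transcript and sums all transcripts of that gene. Over all tested genes, 39.4% rose and 37.5% fell in that comparison, with a median of 0.02. The members' median was 3.52. Single genes reached sizes like those of the members, with log2 fold changes of 8.20 ± 0.08 for the growth factor gene Igf2, 5.98 ± 0.07 for the non-coding RNA H19, 5.32 ± 0.22 for Airn, 4.86 ± 0.06 for Peg3, 4.74 ± 0.13 for the cell cycle inhibitor gene Cdkn1c and 2.76 ± 0.06 for Mest. Gnas and Grb10 rose less, with 1.84 ± 0.05 and 1.01 ± 0.19. The genes named with these values were the 4 of each list with the smallest F-test p. Among the genes that fell were Peg12 with -1.24 ± 0.23, Atp10a with -0.84 ± 0.28 and Copg2 with -0.73 ± 0.07. Snrpn, with -0.09 ± 0.06, was not called.

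Calls in the pathways in which the members act are read against the background of 39.4% higher and 37.5% lower among all tested genes. Of 18 tested Notch pathway genes, 9 rose and 7 fell at day 6 against day 0, with a median of 0.10, which is near that background. The receptor gene Notch4 and the ligand gene Jag2 were lower, with -4.16 ± 0.19 and -1.18 ± 0.07, as were the nuclear effector gene Rbpj with -0.66 ± 0.04 and the target gene Hes1 with -0.51 ± 0.10. The protease gene Adam10 rose, with 1.26 ± 0.06, and Notch1 rose slightly, with 0.16 ± 0.07. Larger rises in the same list, picked out after their values were seen, were those of the ligand gene Dll1, with 2.63 ± 0.45, and of the coactivator genes Maml2 and Maml1, with 4.31 ± 0.53 and 1.99 ± 0.10. The ligand gene Dll4 also rose, to 1.65 ± 0.684 CPM at day 6, against 0.0377 ± 0.0652 CPM at day 0. Of 15 tested thyroid hormone pathway genes, 7 rose and 6 fell, with a median of -0.05, again near the background. The carrier gene Ttr, which is also among the extraembryonic endoderm markers below, rose with a log2 fold change of 7.75 ± 0.20. The receptor gene Thra rose by 0.51 ± 0.09, the hormone-responsive gene Klf9 was lower with -1.30 ± 0.07, and Dio2, which activates the hormone that Dio3 inactivates, was below 0.1 CPM on every day and not tested.

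Of 8 tested genes of the Rtl, Peg10 and Pnma families, relatives of Rtl1, 3 rose and 2 fell at day 6 against day 0, with a median of 0.36 and shares no higher than the background of 39.4% and 37.5%. Peg10 rose to 688 ± 2.24 CPM at day 6, against 301 ± 1.81 CPM at day 0, Rtl5 and Rtl6 rose with log2 fold changes of 2.81 ± 0.45 and 1.47 ± 0.15, and Pnma2 was lower with -2.67 ± 0.34. Of 10 miRNA processing genes, 3 rose and 6 fell, with a median of -0.33. Ran had -0.70 ± 0.04, Ago2 -0.48 ± 0.05 and Ago3 -0.41 ± 0.09, all lower, and Dgcr8, part of the nuclear complex that cuts hairpins from their hosts, rose with 0.22 ± 0.06.

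**Figure D5:**
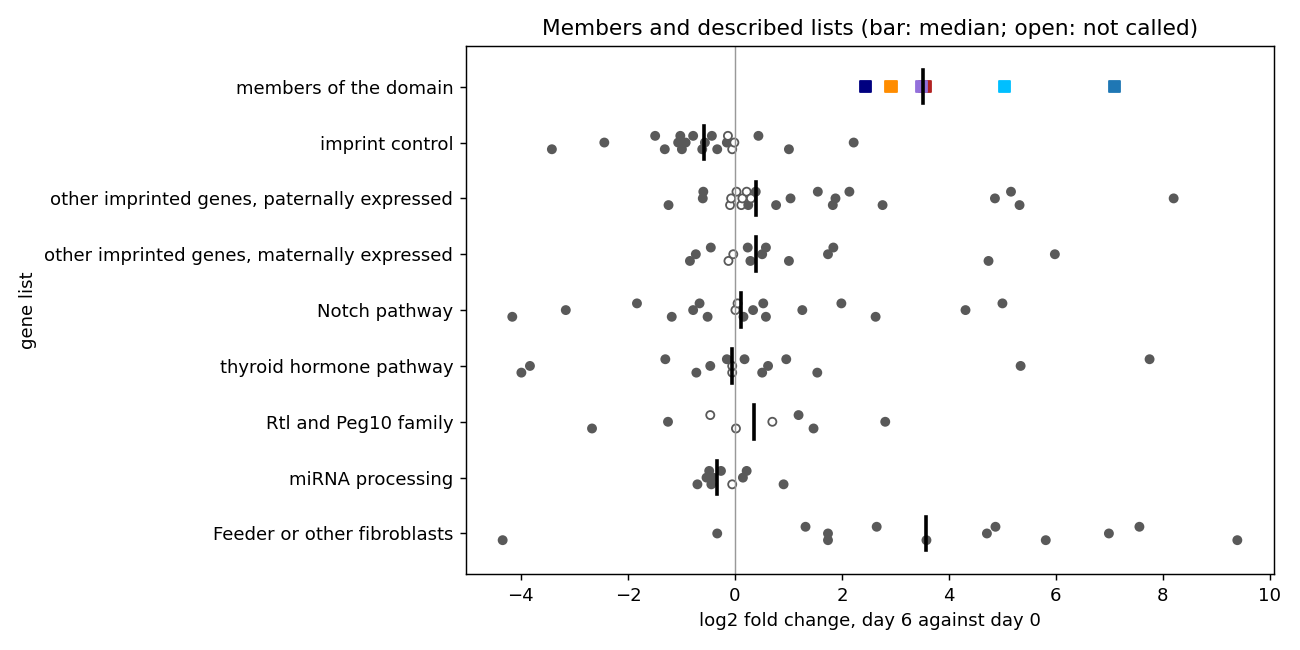
log2 fold change at day 6 against day 0 on the horizontal axis for the 6 members (squares, top row) and the tested genes of 8 lists (circles, open where the edgeR test made no call), with the median as a bar. The members lie between 2.44 and 7.09, and the median of the imprint control list is -0.58.

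Markers of other cells moved over the same days. The 16 fibroblast markers, which a feeder layer would carry, summed to 316 to 333 CPM in the day 6 libraries, 112 to 122 CPM at day 4 and 75.6 to 80.9 CPM at day 2, against 50.6 to 58.6 CPM at day 0. Of the 13 that were tested, 11 rose and 2 fell at day 6 against day 0, where 39.4% of all tested genes rose and 37.5% fell. Some of the 11, such as Lum (0 CPM at day 0, 2.27 CPM at day 6), passed the count filter through later days. Such a marker would not have been tested had it stayed low, so the count of 11 is partly set by the filter. Col3a1 averaged 79.5 ± 5.98 CPM at day 6 and 0.624 ± 0.168 CPM at day 0, while the surface marker Thy1 averaged 0.555 ± 0.0387 CPM at day 6 and 11.6 ± 0.515 CPM at day 0. Dcn and Fap stayed under 1 CPM on every day, and S100a4 had no count at day 6. The 8 extraembryonic endoderm markers summed to 849.7 to 865 CPM at day 6, 1013 to 1028 CPM at day 4 and 693 to 709 CPM at day 2, against 115 to 119.6 CPM at day 0. Of these, 8 of 8 rose at each later day, beside 34.9%, 37.5% and 39.4% of all tested genes at days 2, 4 and 6. Afp and Ttr were under 1 CPM at day 0 and would likewise not have been tested had they stayed low. The part of either cell type in the levels of the 6 members was not tested.

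The members differed from each other in their time course. The root mean square difference between the log2 fold changes of 2 members at days 2, 4 and 6 was smallest for Meg3 and Rian, at 0.44, and was 0.62 for Meg3 and Mirg, 0.67 for Rian and Mirg, 0.68 for Rian and Dio3 and 0.76 for Meg3 and Dio3. Dlk1 differed from the other members by 2.65 to 3.59. By the same measure, taken over the 3 comparisons with day 0, which share those libraries, the genes most like each member were listed. Genes with clone names, such as Gm plus a number or symbols ending in Rik, were left out of this ranking. They were Duoxa2, Gkn3 and Mir99ahg for Dlk1 (0.23 to 0.28), and Sardh, Celf3 and Dppa1 for Rtl1 (0.23 to 0.30). For Dio3 they were Rgs7, Fyb and Pdlim4 (0.19 to 0.24). Differences that involve Rtl1 or Dio3 are loose, since their log2 fold changes against day 0 had SE of 0.40 to 0.87. Meg3 was closest to Mir1906-1, which lies in one of its exons (0.10), then to Xlr5a and Hs3st1 (0.13 and 0.17). Rian was closest to Scube2, Zfp651 and Bmp2 (0.04 to 0.07), and Mirg to Col4a2, Syt12 and Fbn2 (0.11 to 0.15).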

How the data were processed

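The deposited table holds raw counts per gene for 12 libraries. Per the submitters' processing notes, the tools were featureCounts 2.0.1, HISAT2 2.1.0, DESeq2 and FastQC 0.11.7 and the build was mm10, without roles; the annotation release and strand setting are not given in the sources used here. Of 55335 gene IDs, 55154 matched GENCODE M21. From these counts, genes with enough reads by day (filterByExpr, 16468 genes) were scaled by TMM and fitted with edgeR 4.0.16 (R 4.3.3), quasi-likelihood, robust, with 1 coefficient per day and no covariate. SE were recovered from the test statistic. Tests were two-sided, with Benjamini-Hochberg adjustment over all tested genes and a threshold of 0.05. Ratios to Meg3 used log2 of counts plus 0.5. The procedure was tested on simulated data. Alternatives were other scalings and filters, DESeq2 1.42.0, limma 3.58.1 (voom), fits to 6 libraries, a replicate block and leaving out each library. Named were the 6 members, rows in their interval with at least 20 counts, 4 flanking coding genes per side, up to 4 list genes by F-test p plus some chosen by role or after their values were seen, and the 3 genes most alike, clone names left out. Members and lists were chosen with earlier results of these data known. Poisson intervals of CPM cover counting error only, and intervals of log2 fold changes come from the fitted SE. Figures used matplotlib 3.10.9. Values of some list genes withheld for evaluation are not reported here.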

Additional observations from a re-analysis of the deposited data

How the results depend on the processing

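Every called log2 fold change of the 6 members kept its direction and its call, and the 3 that were not called stayed uncalled, under the other scalings, filters and tests, the 6-library fits, the replicate block and each library left out. In the 6-library fit, Rtl1 and Dio3 were not tested at day 2 against day 0. With the replicate block, the log2 fold change at day 6 against day 0 was 7.09 for Dlk1 and 2.44 for Dio3. Same-numbered libraries did not deviate together (0 of 18 correlations over 0.1, from -0.038 to 0.034). No pairing by replicate number was seen, and the labels do not state whether there was one. The block changed no call of a member. Library size alone shifted log2 fold changes by 0.132, 0.127 and 0.104 at days 2, 4 and 6 against day 0. The log2 ratio of Mirg to Meg3 at day 6 against day 0 ran from -0.20 to 0.04 when each library was left out. For Dio3, each library left out gave 1.97 to 3.97 at day 6 against day 0. Depth limits Rtl1 and Dio3 at days 0 and 2, where they had 4 to 18 counts per day.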
